A study of Mus musculus with 2 samples.

Results

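The Htr2c Dpp4 glutamatergic nuclei were 214 of 3844 gated glutamatergic nuclei and of 12918 nuclear barcodes sequenced from the entorhinal cortex of APP/PS1 mice. They were chosen by the readout itself. A nucleus entered the gate with at least 6000 unique molecular identifiers (UMIs, each one counted RNA molecule), at least 2 UMIs of Slc17a7 and at most 3 UMIs of Gad1 and Gad2 together. Over the gated nuclei of both libraries, log1p of the counts per 10000 was turned into a z score for each of Rnf152, Htr2c, Pappa, Dpp4 and Nell1, and a nucleus was a member when the mean of the 5 z scores was at least 1.0. The high levels of these 5 genes in the members are therefore what the rule selected, and they are given here as a description.

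All mice were males of the APP/PS1 line, which carries mutant amyloid precursor and presenilin transgenes and accumulates amyloid plaques. One group drank alkaline water with N-oleoyl-leucine (OLE) dissolved in DMSO at 25 mg/kg/day, and the vehicle group drank the same water with DMSO alone. The treatment ran from 15 to 18 months of age. Nuclei of 5 mice were pooled into 1 droplet library per group, so each group was a single sample, no test between groups was possible, and every interval below covers counting error only. No wild-type library enters these comparisons.

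Htr2c encodes a serotonin receptor that couples to Gq and raises inositol phosphate signalling in neurons, and its transcript is a known target of RNA editing. Dpp4 encodes a membrane-bound serine protease that trims dipeptides from the ends of peptides, and Pappa encodes a secreted metalloprotease that cleaves insulin-like growth factor binding proteins. Nell1 encodes a secreted protein with EGF-like repeats, and Rnf152 encodes a lysosomal ubiquitin ligase that acts on amino acid sensing. Cortical glutamatergic neurons load their vesicles through Slc17a7, and those of some limbic and subcortical regions through Slc17a6.

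The bases upstream of the annotated starts are shown for 3 rule genes whose RefSeq start coincides with the 5′ end of the GENCODE gene. They are shown because these genes were among those that chose the members. Each line has the 250 bases before the start in GRCm38.p6, read 5′ to 3′ on the gene's own strand. Htr2c lies at chrX:146962513-147197277 on the plus strand, with the window at chrX:146962263-146962512. Dpp4 lies at chr2:62330073-62412231 on the minus strand, with the window at chr2:62412232-62412481. Rnf152 lies at chr1:105276914-105356710 on the minus strand, with the window at chr1:105356711-105356960. Capitals mark a match to the TATA box letters TATAAA on either strand.
Htr2c: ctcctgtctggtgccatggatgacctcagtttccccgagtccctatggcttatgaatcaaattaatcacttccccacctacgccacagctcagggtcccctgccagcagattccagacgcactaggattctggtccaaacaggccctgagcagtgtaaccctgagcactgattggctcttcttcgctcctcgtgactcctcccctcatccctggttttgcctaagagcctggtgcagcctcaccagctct
Dpp4: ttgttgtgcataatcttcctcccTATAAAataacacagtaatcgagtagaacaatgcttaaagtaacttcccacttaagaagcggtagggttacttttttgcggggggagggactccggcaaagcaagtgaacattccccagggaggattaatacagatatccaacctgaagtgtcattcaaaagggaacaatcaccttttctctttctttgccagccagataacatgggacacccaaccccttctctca
Rnf152: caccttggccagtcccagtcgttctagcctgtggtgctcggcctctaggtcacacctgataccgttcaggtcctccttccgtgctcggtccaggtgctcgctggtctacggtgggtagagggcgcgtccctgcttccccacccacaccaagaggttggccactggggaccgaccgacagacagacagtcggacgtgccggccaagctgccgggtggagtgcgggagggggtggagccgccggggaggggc

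The 3 windows differed in base composition. The Rnf152 window had 18 CG pairs and 67.6% G and C, the Htr2c window 5 pairs and 55.6%, and the Dpp4 window 4 pairs and 43.6%, where the median over 32851 RefSeq promoters was 6 pairs. The TATAAA letters occurred once, near the 5′ end of the Dpp4 window and so away from the start. They occurred in 12.4% of all promoters. Neither the E-box letters CAGATG, found in 14.4% of promoters, nor the GC box letters GGGCGG, found in 32.7%, occurred in these windows on either strand. A motif match is a description of the letters and not a binding site. Of the other rule genes, Pappa lies at chr4:65124174-65357509 and Nell1 at chr7:49974864-50866608, both on the plus strand. The RefSeq start of Nell1 is not the 5′ end of its GENCODE gene, so its window is not shown. The 250 bases before that RefSeq start had 3 matches to the GC box letters, 22 CG pairs and 72.0% G and C.

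The score had a dense body of low values and a long upper tail. Its median was 1.80 in the members, with a range from 1.00 to 4.72, and -0.170 in the other 3630 gated nuclei. The threshold crossed a continuous range. The last members inside it had mean z scores of 1.0012 and 1.00342 and the first nuclei outside it 0.999896 and 0.999509, while 43 nuclei lay within 0.2 above the threshold and 75 within 0.2 below it. Of the members, 51 had at least 1 UMI of all 5 genes, 111 had 4 of them, 47 had 3 and 5 had 2. Of the other gated nuclei, 5 had all 5 genes and 560 had none.

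**Figure D1:**
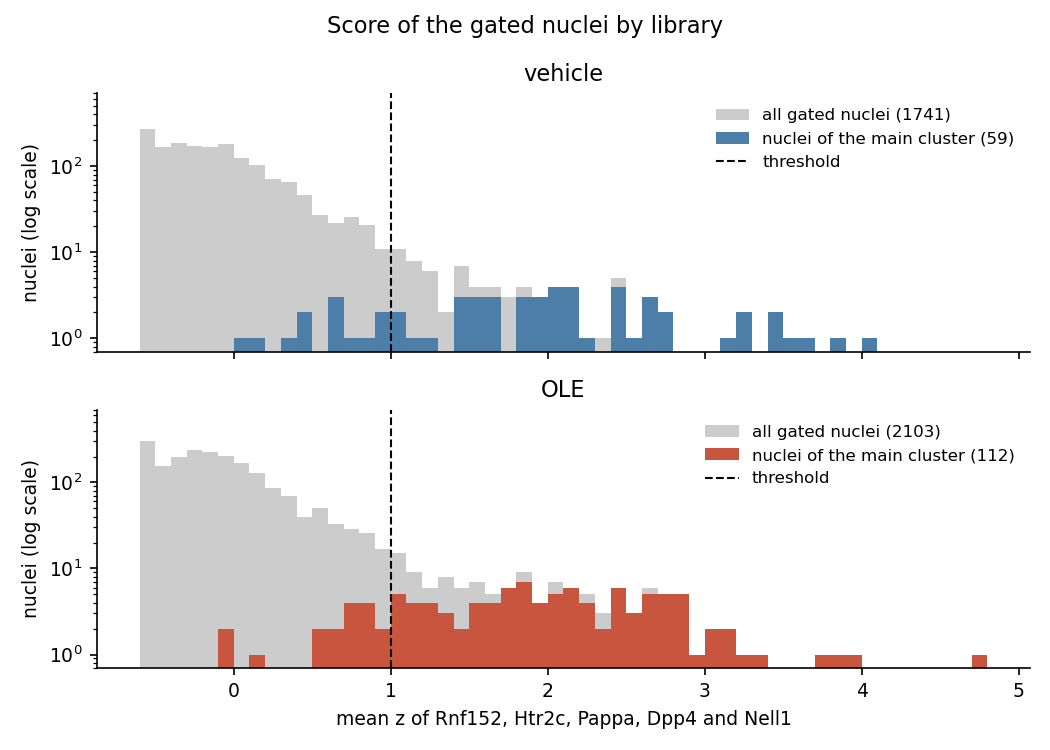
Histogram of the mean z score of the 5 rule genes over the gated nuclei of the vehicle library (top) and the OLE library (bottom), with the number of nuclei on a log scale. Grey bars are all gated nuclei, coloured bars those of the main cluster, and the dashed line is the threshold of 1.0, at which the grey body of each histogram passes into its tail.

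To see whether the members formed 1 kind of nucleus, the gated nuclei were clustered on 2000 variable genes without the 5 rule genes. One cluster, called the main cluster here, held 142 of the 214 members. It had 171 nuclei in all, so 83.0% of its nuclei were members. Its other 29 nuclei had a median score of 0.682. The 72 members outside it were spread over other clusters, with 17 in a cluster led by Atp10b, Dsc3 and Gpc6, 13 in a small cluster led by Dpp4, Cpa6 and Spock3, 9 in a cluster led by Hmga2 and Lcp1 and 9 in a cluster whose leading genes included the vascular genes Slco1a4, Flt1 and Rgs5. In all, 17 of 26 clusters held a member. The median score was 2.10 for members in the main cluster and 1.27 for members outside it. The label thus described a compact group of nuclei together with a looser set that passed the threshold from several other groups, and the results below are given for both where they differed.

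The rule genes differed in how evenly the members carried them. Levels are given as counts per 1000000 UMIs of the set of nuclei (CPM). Htr2c was at 903 CPM in the vehicle members and 839 in the OLE members, against 72.7 and 87.2 in the other gated nuclei. GABAergic nuclei, which also use this receptor, had 188 and 181. Members in the main cluster had 1020 and 936, and members outside it 806 and 669, so Htr2c was high in both. Nell1 was at 1530 and 1521 CPM in the main cluster but at 527 and 424 in the members outside it, against 285 and 270 in the other gated nuclei. Rnf152 had the same form, at 206 and 253 inside the main cluster, 85.0 and 85.3 outside it and 18.3 and 16.5 in the other gated nuclei. Dpp4 was at 154 and 121 inside, 97.3 and 116 outside and 15.4 and 12.3 in the others. Pappa, at 68.3 and 62.6 inside and 47.0 and 70.6 outside, was at 2.11 and 2.52 in the others. Nell1 and Rnf152 thus differed most between the main cluster and the members outside it, while Htr2c, Dpp4 and Pappa were raised to a like degree in both. Over the other gated nuclei, the main cluster's fold was highest for Pappa (32.4 and 24.8) and lowest for Nell1 (5.36 and 5.64).

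**Figure D2:**
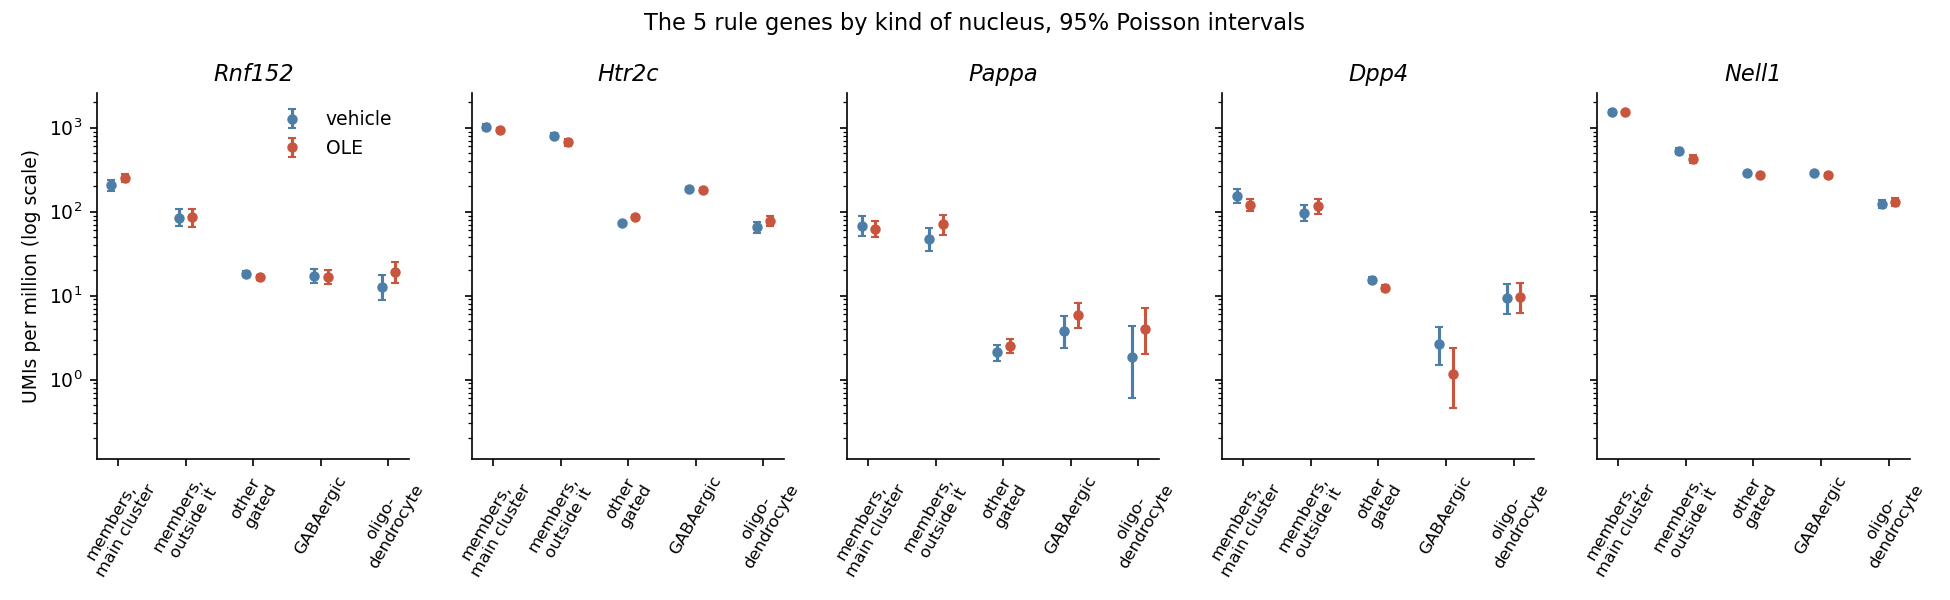
CPM (log axis) of the 5 rule genes in members of the main cluster, members outside it, other gated nuclei, GABAergic nuclei and oligodendrocyte nuclei, with 95% Poisson intervals. Blue is vehicle and red is OLE, and both kinds of member lie above the other gated nuclei for each gene, which follows from the choice of members by the mean of the 5.

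After each nucleus was thinned to 6000 UMIs, Htr2c was detected in 90.2% of vehicle and 87.9% of OLE members, against 97.6% and 94.7% before thinning. In the other gated nuclei the thinned shares were 20.4% and 28.0%. Dpp4 was detected in 52.4% and 49.2% of thinned members, in 7.84% and 7.10% of the others and in 1.80% and 0.307% of GABAergic nuclei. The free RNA of a droplet library adds UMIs to every nucleus. Oligodendrocyte nuclei, which should carry little neuronal RNA, are set beside the members as a rough measure of it. At 1000 UMIs per nucleus, Htr2c was found in 6.34% and 5.79% of oligodendrocyte nuclei and in 5.97% and 7.61% of the other gated nuclei, but in 48.8% and 49.2% of the members. Dpp4 at that depth was found in 0.720% and 1.22% of oligodendrocyte nuclei, 1.15% and 1.17% of other gated nuclei and 12.2% and 11.4% of the members. The median depth before thinning was 16872.5 and 14475.5 UMIs in the members, 22525 and 18378 in the other gated nuclei, and 3311.5 and 3773.5 in the oligodendrocyte nuclei. At 1000 UMIs the other gated nuclei were thus near the oligodendrocyte nuclei for both genes. GABAergic nuclei were lower for Dpp4 at that depth, with 0 of 278 and 0 of 326, so these values do not set its background. The members were several times above the oligodendrocyte nuclei, which follows from the rule, since both genes chose the members.

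The libraries held 70845739 UMIs in 6745 vehicle barcodes and 69485537 UMIs in 6173 OLE barcodes. The gate kept 25.8% of the vehicle and 34.1% of the OLE barcodes. The libraries shared 14 barcode sequences, and no member carried one of them. Markers of glial and vascular cells, 45 genes in all, made up a median of 0.0508% and 0.0543% of the UMIs of vehicle and OLE members, and 0.0734% and 0.0876% in the other gated nuclei. Their highest share was 0.121% and 0.151% in a main-cluster member and 0.467% and 0.445% in a member outside it. Microglial markers, 11 genes, made up 0.00724% and 0.00961% of the UMIs of main-cluster members, 0.00716% and 0.00893% outside it and 0.00712% and 0.00948% in the other gated nuclei, so they were not lower in the members.

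Members were a larger share of the gated nuclei in the OLE library. They were 82 of 1741 vehicle nuclei, or 4.71% (95% Clopper-Pearson interval 3.76 to 5.81), and 132 of 2103 OLE nuclei, or 6.28% (5.28 to 7.40). The difference was 1.57 percentage points, with a counting interval from 0.0788 to 3.04. It lay in the main cluster, whose members were 2.70% and 4.52% of the gated nuclei, while members outside that cluster were 2.01% and 1.76%. The main cluster held 57.3% of the vehicle members and 72.0% of the OLE members. The gated nuclei themselves differed in make-up between the libraries. The cluster whose leading genes included Slco1a4, Flt1 and Rgs5 had 76 vehicle and 335 OLE nuclei. Without nuclei with over 0.2% glial and vascular marker UMIs, members were 4.67% of the vehicle and 7.32% of the OLE gated nuclei.

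The gate itself bore on this share. Slc17a7, which the gate required, was at 186 CPM in the other gated vehicle nuclei and 246 in the OLE ones, and at 160 and 214 in the members. Among nuclei of at least 6000 UMIs with Slc17a7 at 0 or 1 and the same limit on Gad1 and Gad2, the score reached 1.0 in 99 of 692 vehicle nuclei, or 14.3% (11.8 to 17.1), and in 77 of 720 OLE nuclei, or 10.7% (8.53 to 13.2). There the vehicle share was the larger one. With these nuclei joined to the members, the score was reached by 181 of 2433 vehicle nuclei, 7.44%, and 209 of 2823 OLE nuclei, 7.40%. The joined difference was -0.0359 percentage points, with a counting interval from -1.49 to 1.41, so the larger OLE share among gated nuclei was not present in the joined nuclei. The Slc17a7 level and the share cannot be told apart here, since each group was 1 library.

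**Figure D3:**
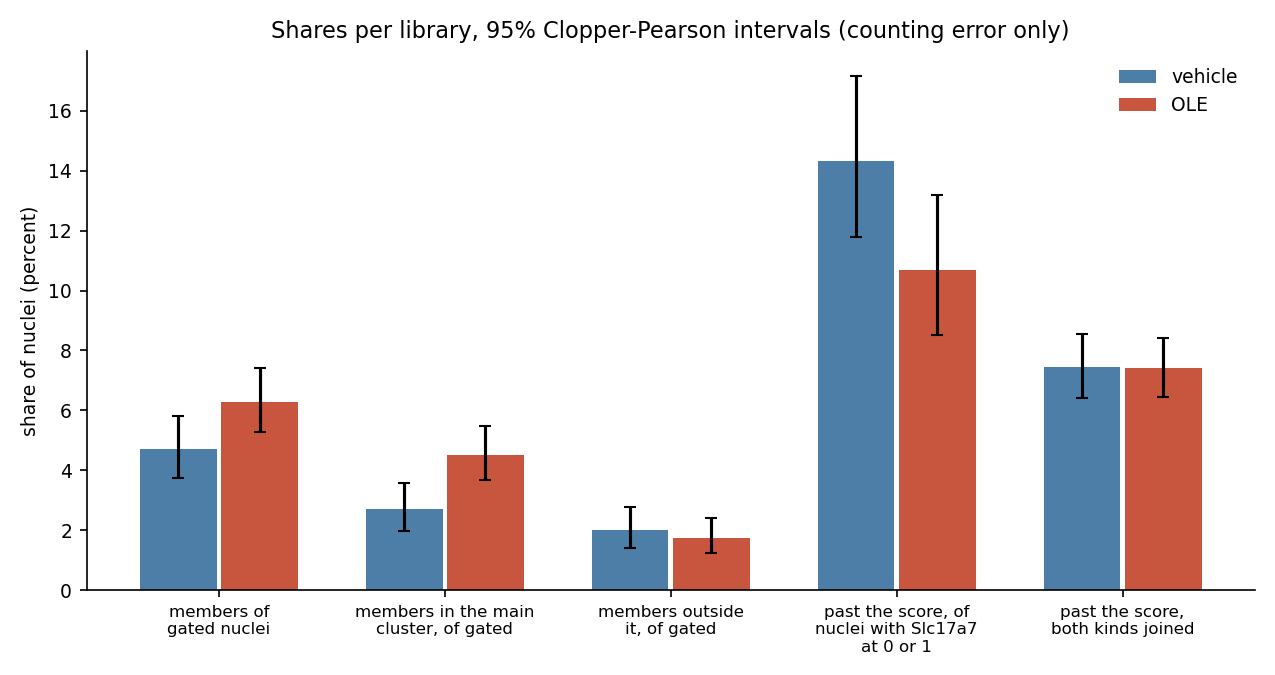
Share of nuclei in percent, with 95% Clopper-Pearson intervals, for the vehicle (blue) and OLE (red) libraries. The first 3 pairs are shares of gated nuclei (all members, members in the main cluster, members outside it), the fourth is the share past the score among nuclei with Slc17a7 at 0 or 1, where the order of the groups turns, and the last joins both kinds at 7.44% and 7.40%.

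The nuclei past the score below the Slc17a7 minimum had some of the members' other genes at a high level. They were not gated nuclei and are no members. Slc17a6 was at 94.5 and 108 CPM in them, 68.9 and 86.3 in the members, and 17.0 and 21.9 in the other gated nuclei. Tshz2, a transcription factor gene, was at 2829 and 2767, 2696 and 2754, and 857 and 841 in the same order. Of the 20 genes with the highest fold in members, 19 were also at least 2-fold higher in these nuclei than in the other gated nuclei in both libraries, and of all 158 genes past that fold in members, 105 were, where 299 of 12642 genes tested were. Against the rest of the nuclei below the Slc17a7 minimum the numbers were smaller, at 12 of 20 and 55 of 158, beside 119 of all genes. Matn4 (log2 0.66 and 0.52) and As3mt (-0.33 and -0.50) were among those that did not reach 2-fold there, and Slc17a6 (2.02 and 2.01) did.

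The members had UMIs of both vesicular glutamate transporters more often than the other gated nuclei did. Of all members, 70.7% in the vehicle library and 62.9% in the OLE library had a UMI of both Slc17a7 and Slc17a6. Of the main-cluster members, 83.0% in the vehicle library (69.2 to 92.4) and 68.4% in the OLE library (58.1 to 77.6) did, and of those outside it 54.3% and 48.6%. Of the other gated nuclei this was 24.2% and 25.6%. Since the gate required Slc17a7, the difference lay in Slc17a6, which was 4.06-fold higher in vehicle members and 3.95-fold higher in OLE members than in the other gated nuclei. The other gated nuclei, at 17.0 and 21.9 CPM of Slc17a6, were near the oligodendrocyte nuclei, at 19.1 and 18.7. After thinning to 6000 UMIs, Slc17a6 was detected in 35.4% and 40.9% of the members, 9.04% and 11.6% of the other gated nuclei and 13.4% and 12.0% of the oligodendrocyte nuclei that deep.

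Genes beyond the rule separated the members from the other gated nuclei, and since the rule sorted these same nuclei the following values describe the members and test nothing. Of 12642 genes with at least 200 UMIs over the gated nuclei, 158 were at least 2-fold higher in members in both libraries (1.25%) and 443 at least 2-fold lower in both (3.50%). The median log2 ratio over these genes was -0.05 in vehicle and -0.04 in OLE. The highest ratio was that of Igdcc3, an immunoglobulin superfamily gene, at 37.8 and 44.6 CPM in members against 3.41 and 4.02, a fold of 11.1 in each library. It was followed by the lincRNA 9330158H04Rik (8.25- and 8.44-fold), Vwa5a (10.8- and 7.59-fold) and Sncaip, which encodes the synuclein-binding protein synphilin (6.16- and 5.85-fold). Sv2c, which encodes a synaptic vesicle glycoprotein, was at 84.8 and 102 CPM against 18.4 and 20.4. Itpr3, which encodes an inositol trisphosphate receptor, was at 14.6 and 11.6 against 2.70 and 2.23. Matn4, an extracellular matrix gene, was at 24.4 and 53.4 against 5.71 and 6.86. The rest of the 20 highest were Ccdc129, Fam163a, Gm28175, Ano5, Tnxb, Rab37, Cpm, Evc, Btg1, Slc17a6, Htr4, Kcns1 and As3mt, with folds between 3.78 and 8.29.

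**Figure D4:**
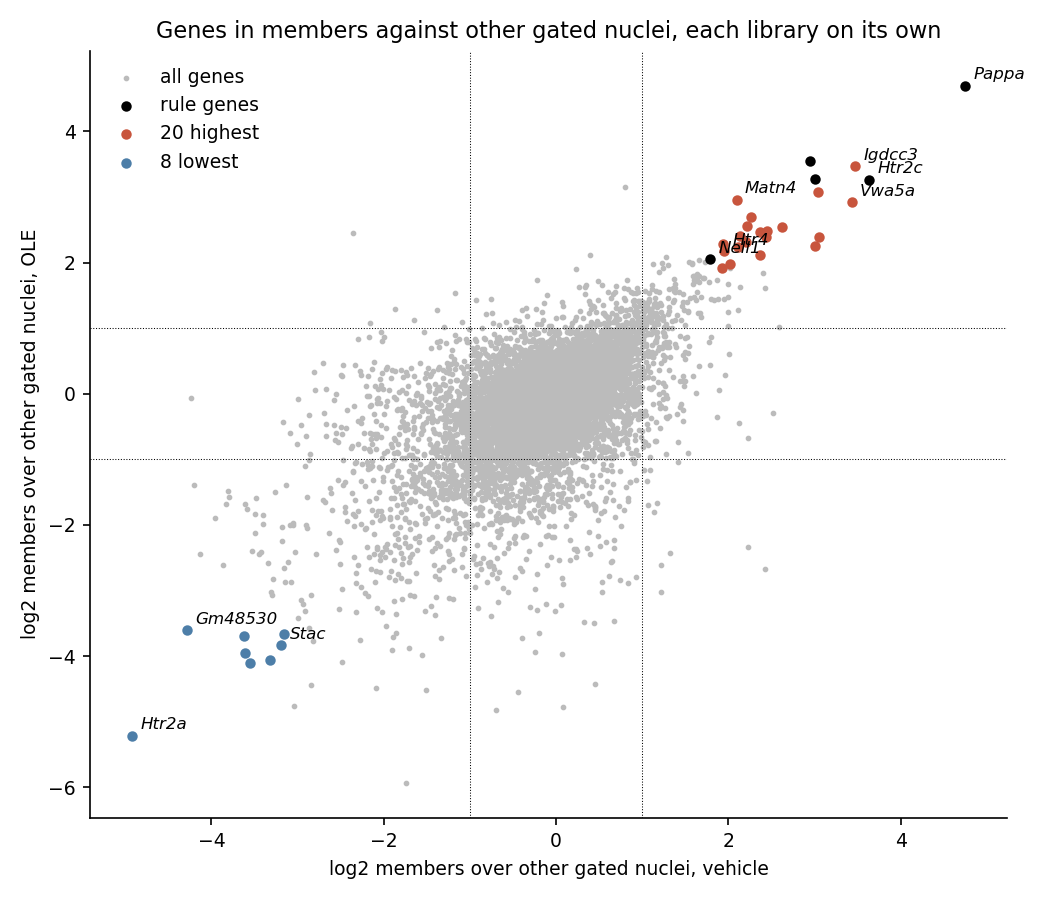
log2 ratio of CPM in members over other gated nuclei, vehicle on the horizontal and OLE on the vertical axis, for genes with at least 200 UMIs over the gated nuclei. Black points are the rule genes, which selected the members, red points the 20 highest other genes (Igdcc3 11.1-fold in each library) and blue points the 8 lowest (Htr2a with 1 UMI in each library), and dotted lines mark 2-fold.

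The lowest gene in the ranking was Htr2a, which encodes the other main cortical Gq-coupled serotonin receptor. The ranking set a count of 0 to 3 counts, so genes without a UMI in the members may be lower still. Htr2a had 1 UMI in the vehicle members and 1 in the OLE members, which is 0.610 and 0.485 CPM against 18.5 and 18.0 in the other gated nuclei. The log2 ratio was -4.92 (counting interval -10.2 to -2.44) and -5.21 (-10.5 to -2.73). Main-cluster members had 0 Htr2a UMIs of 746253 in vehicle and 0 of 1310914 in OLE members, which allows up to 4.02 and 2.29 CPM. Htr2a was at 79.9 and 63.3 in nuclei high in Cobll1 and Thsd7b and at 85.3 and 75.1 in GABAergic nuclei. The other 7 lowest genes in that ranking were 1700047F07Rik, 4930555F03Rik, Gm48530, Plk5, Ccdc3, Stac and Gm19303, with 1 to 9 UMIs per library in the members. For Stac the log2 ratio was -3.19 (-5.07 to -1.83) in vehicle and -3.83 (-6.12 to -2.28) in OLE.

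The serotonin receptor family was divided in the members. Of 14 receptor genes, 8 beside Htr2c had enough UMIs. Of these, 2 were at least 2-fold higher in both libraries and 3 at least 2-fold lower, where 1.25% and 3.50% of all genes were. The median log2 ratio of the 8 was -0.91 in vehicle and 0.48 in OLE. Htr4, which encodes a Gs-coupled receptor, was at 173 and 232 CPM in vehicle and OLE members against 44.8 and 51.3 in the other gated nuclei, and at 256 and 289 in the main cluster. Htr7, also Gs-coupled, was at 78.0 and 72.3 against 23.9 and 21.3. Htr1f, which encodes a Gi-coupled receptor, went the other way. It was at 50.0 and 47.1 in members and 13.4 and 15.3 in the main cluster, against 180 and 173 in the other gated nuclei. Htr1b had 3 UMIs in vehicle and 0 in OLE members. Htr1d and Htr3b were at 0 in the members of both libraries, where a count of 0 allows up to 1.83 CPM in vehicle and 1.46 in OLE (3 counts of the total).

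Genes that act below Gq were mostly at the level of the other gated nuclei. Of 16 measured, 1 was at least 2-fold higher (Itpr3) and 2 at least 2-fold lower, where 1.25% and 3.50% of all genes were. The median log2 ratio was 0.03 in vehicle and -0.02 in OLE. Plcb1, a phospholipase that Gq activates, was at 1554 and 1495 CPM in members against 1670 and 1603. Gnaq, the G protein subunit itself, was at 346 and 342 against 330 and 323. Dgkb, a diacylglycerol kinase gene and 1 of those lower, was at 202 and 228 against 630 and 649. Its main-cluster levels were lower still, at 60.3 and 75.5.

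Of the dipeptidyl peptidase family, 9 genes beside Dpp4 were measured and 1 was past 2-fold. This was Fap, which encodes the closest relative of Dpp4, at 73.2 and 58.7 CPM in members against 23.5 and 20.1 in the others. Dpp6 and Dpp10, which encode potassium channel subunits without peptidase activity, were at 672 and 673 against 640 and 632, and at 1449 and 1340 against 1726 and 1575. Among the 12 genes beside Pappa measured in the pappalysin and insulin-like growth factor list, none was at least 2-fold higher in members, 2 were at least 2-fold lower in both libraries, and the median log2 ratio was -0.05 in vehicle and -0.10 in OLE. Those 2 were Pappa2 and Igf1, with 2 to 6 UMIs per library in members. Among 27 genes of lysosomal amino acid sensing beside Rnf152, none passed the fold in either direction. Over all genes, 1.25% were higher and 3.50% lower in members by that fold in both libraries.

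Other receptors and channels gave the main cluster a marked profile. Chrm2, the M2 muscarinic receptor gene, was at 549 and 448 CPM in main-cluster members and 309 and 249 in members outside it, against 103 and 99.5 in the other gated nuclei. Chrm3 was at 397 and 342 in the main cluster against 1112 and 966. Of 24 measured receptors for monoamines, acetylcholine and peptides, Chrm2 was the one at least 2-fold higher in members in both libraries, and 7 were at least 2-fold lower. Over all genes, 1.25% were higher and 3.50% lower in members by that fold. Among 23 glutamate receptor genes, 1 was at least 2-fold higher in members in both libraries and 1 at least 2-fold lower. In the main cluster 2 were higher and 5 lower by that fold. The one lower over all members was Gria1, an AMPA receptor subunit gene, at 131 and 146 in the main cluster against 826 and 883. Of 26 potassium channel genes, none was at least 2-fold higher in members in both libraries and 1 was at least 2-fold lower. In the main cluster 2 were higher and 6 lower by that fold, beside 268 higher and 821 lower over all genes. Kcnip4, which encodes a subunit of A-type potassium channels, was at 22956 and 24503 in the main cluster, against 10627 and 10037 in the other gated nuclei, and its channel partner Kcnd2 at 5359 and 4934 against 2513 and 2442. Among the lower ones, Kcnc2 was at 64.3 and 32.0 against 210 and 217, and Kcnip1 at 2.68 and 2.29 against 26.1 and 29.1.

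Genes of synapse and axon guidance showed how far the main cluster differed from the members outside it. Nlgn1, a neuroligin gene that spans chr3:25426215-26332460, was at 343 and 269 CPM in main-cluster members. It was at 5613 and 4336 in the members outside it, 5088 and 4682 in the other gated nuclei and 2276 and 2453 in oligodendrocyte nuclei, so the main cluster was below every other kind of nucleus set beside it. In single main-cluster nuclei the quartiles of Nlgn1 were 1.30, 2.41 and 3.43 counts per 10000 in vehicle and 1.40, 2.45 and 3.79 in OLE. In the members outside it they were 36.4, 45.6 and 65.8 in vehicle and 32.6, 40.2 and 50.1 in OLE, so the quartile ranges of the 2 kinds of member did not overlap. Robo1, a receptor of axon guidance, was at 57.6 and 45.8 in the main cluster, 1000 and 360 outside it and 798 and 724 in the other gated nuclei. Ntng1, a netrin family gene, was at 22.8 and 26.7, 524 and 156, and 513 and 441. Kirrel3 was at 72.4 and 51.9, 1295 and 746, and 917 and 872. In each of these genes the main cluster was the low group in both libraries. The clusters were made from the same counts, so these differences describe them.

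Layer and region markers gave the main cluster no single name. The list for near-projecting neurons of layers 5 and 6 had 5 measured genes. In the main cluster 1 of these was at least 2-fold higher in both libraries, Tshz2, at 2821 and 3009 CPM. Another 3 were at least 2-fold lower in both. Over all genes, 268 were higher and 821 lower in the main cluster by that fold. Trhr, of the near-projecting list, had 0 and 1.53 CPM there against 14.3 and 15.7 in the other gated nuclei. Fezf2, a marker of extratelencephalic neurons, was at 0 and 0.763, Syt6, a marker of corticothalamic neurons, at 0 in both libraries, and Etv1, a layer 5 marker, at 4.02 and 6.87 against 82.7 and 90.7. Several genes of other lists were raised, though other genes of those lists were lower. Zfpm2 was at 1591 and 1396 against 515 and 469, and Thsd7b at 990 and 968 against 326 and 300. They are of the corticothalamic list, where 2 of 7 measured genes were 2-fold higher in both libraries and 4 lower. Neurod6 was at 91.1 and 118 against 23.6 and 28.5. It is in the CA1 and CA3 list, with 1 of 7 higher and 2 lower, and in the glutamatergic list, with 3 of 11 higher and 1 lower. GABAergic markers made up 0.0182% and 0.0175% of main-cluster UMIs and 0.0325% and 0.0436% of those of the other gated nuclei. The main cluster is therefore described by its genes alone.

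Members were also set beside 3 sets of gated nuclei chosen by other gene pairs. Against 288 nuclei high in Foxp2 and Syt6, 207 of 6091 genes were at least 2-fold higher in members in both libraries (3.40%) and 216 at least 2-fold lower (3.55%). Against 344 nuclei high in Stac and Vat1l, 149 of 7150 were higher (2.08%) and 276 lower (3.86%). Against 338 nuclei high in Cobll1 and Thsd7b, 225 of 6474 were higher (3.48%) and 274 lower (4.23%). Chrm2 was at 24.3 and 40.3 CPM in the first set, 31.6 and 28.0 in the second and 33.2 and 44.3 in the third, against 418 and 375 in members. The Foxp2 Syt6 nuclei shared part of the rule genes. Dpp4 was at 34.6 and 38.5 in them and Rnf152 at 70.8 and 57.4, both above the other gated nuclei, while Nell1 was at 35.8 and 34.5, below them.

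Across the gated nuclei of each library, 5 genes that are not in the rule followed the score most closely. Tshz2 had a Pearson correlation with the mean z of 0.39 over 1741 vehicle nuclei and 0.41 over 2103 OLE nuclei. The others were Gm28175 (0.40 and 0.39), Sncaip (0.37 and 0.40), Gm26883 (0.35 and 0.39) and Inpp4b, a phosphoinositide phosphatase gene (0.34 and 0.34). The nuclei share a library and vary in depth, so these values are a description.

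Between the groups, the members were compared by the sum of their UMIs, 1639967 in vehicle and 2061560 in OLE. Of 3049 genes with at least 200 UMIs, 57 were at least 1.5-fold higher in the OLE members (1.87%) and 52 at least 1.5-fold lower (1.71%). The median log2 ratio was 0.01, and over the same genes in the other gated nuclei it was -0.00478. For all 109 genes past the fold the counting interval excluded 0. The minimum of 200 UMIs and the fold of 1.5 fix this in advance, so it adds no support to the calls. No interval here covers the spread between mice or libraries.

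Of the genes higher in the OLE members, most were also higher in OLE in the other gated nuclei. Of the 57, 56 had a ratio above 1 there and 27 were past 1.5-fold, where 37 of all 3049 genes were. In the nuclei past the score below the Slc17a7 minimum, 52 of the 57 were higher in OLE and 26 past the fold. The share over all genes was not counted in those nuclei. Cck, which encodes the peptide cholecystokinin, was at 84.8 CPM in vehicle and 219 in OLE members, a log2 ratio of 1.37 (counting interval 1.09 to 1.66). In the other gated nuclei it was at 64.0 and 137, a log2 ratio of 1.10. Oligodendrocyte nuclei had 143 and 202 CPM of Cck, GABAergic nuclei 55.2 and 82.7, so the Cck level in OLE members was near that in oligodendrocytes, which are not expected to make this peptide. The part of free RNA in the Cck ratio was not tested. The log2 ratio of Serinc1 was 0.95 in members and 0.85 in the others. For Atp1b1, a sodium pump subunit gene, it was 0.83 and 0.73, for Chgb, a secretory granule gene, 0.79 and 0.71, and for Zbtb20, a transcription factor gene, 0.89 and 1.25. Itm2b (0.70 and 0.85), Aplp1 (0.69 and 0.53) and Sparcl1 (0.67 and 0.76) had the same direction in both. Zfp804a and Galnt14 were not shared with the other gated nuclei. Zfp804a, a zinc finger gene, was at 97.0 and 168 in members (log2 0.80, interval 0.52 to 1.08) and at 181 and 174 in the others (-0.05). In the main cluster alone Zfp804a was at 63.0 and 101 (0.68), and in the nuclei below the Slc17a7 minimum at 109 and 151 (0.46). Galnt14, a glycosyltransferase gene, was at 169 and 274 in members (0.70) and 0.02 in log2 ratio in the others, but in the nuclei below the Slc17a7 minimum it was at 265 and 182 (-0.54).

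Most of the genes named among those lower in the OLE members were at a low level in the main cluster and at a high one in the members outside it, and the latter were a smaller share of the OLE members. Ntng1 was at 296 CPM in vehicle and 73.7 in OLE members, a log2 ratio of -2.00 (-2.28 to -1.74), but at 22.8 and 26.7 in the main cluster (0.23, interval -0.65 to 1.16) and at 524 and 156 outside it (-1.75). Robo1 had a log2 ratio of -1.84 in members, -0.33 in the main cluster and -1.48 outside it, and Kirrel3 had -1.28, -0.48 and -0.80. Nlgn1 had -0.88 in members, -0.35 in the main cluster and -0.37 outside it, so that its ratio over all members was larger than in either kind of member. Grik1, a kainate receptor gene, had -1.73 in members and -1.32 in the main cluster, where it had 34 UMIs in vehicle and 24 in OLE. Prr16 had -1.25 in members and kept -0.94 (-1.45 to -0.43) in the main cluster, and Ncam2 had -1.10 and -0.54 (-0.83 to -0.25). Sgcd had -0.90 in members and -0.16 in the main cluster, and Vwc2l -0.88 and -0.05. In the nuclei below the Slc17a7 minimum these directions turned for Ntng1 (1.06), Robo1 (1.25), Grik1 (2.23), Kirrel3 (0.68), Prr16 (1.14), Vwc2l (0.41) and Nlgn1 (0.35), and the ratios of Ncam2 and Sgcd were 0.04 and 0.05. Over all 52 genes, 12 were lower in OLE in those nuclei and 3 past the fold, and the share over all genes was not counted there. In the other gated nuclei 42 of the 52 were lower in OLE. There 0 of all 3049 genes were at least 1.5-fold lower, so that fold does not set the 52 apart. Of the 52, 12 had at least 200 UMIs in the main cluster and 1 of these was past the fold there. Of the 57 higher genes, 20 had at least 200 UMIs in the main cluster and 13 of these were past the fold. In the main cluster as a whole, 22 of 1712 genes were at least 1.5-fold higher in OLE (1.29%) and 12 at least 1.5-fold lower (0.701%).

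Sgcz was lower in OLE in every kind of nucleus that passed the score. It encodes a sarcoglycan of the membrane complex that binds dystrophin, at chr8:37522298-38661508. It was at 5118 CPM in vehicle and 2769 in OLE members, a log2 ratio of -0.89 (-0.94 to -0.84). In the main cluster it was at 3331 and 1660 (interval -1.09 to -0.92), in the members outside it at 6610 and 4705 (-0.49), and in the nuclei below the Slc17a7 minimum at 4267 and 2709 (-0.66). In the other gated nuclei the ratio was -0.18. Single main-cluster nuclei ranged widely. The quartiles of Sgcz were 2.51, 24.8 and 46.5 counts per 10000 in the 47 vehicle nuclei and 1.26, 4.34 and 23.4 in the 95 OLE nuclei, so the nuclei of both libraries overlapped.

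**Figure D5:**
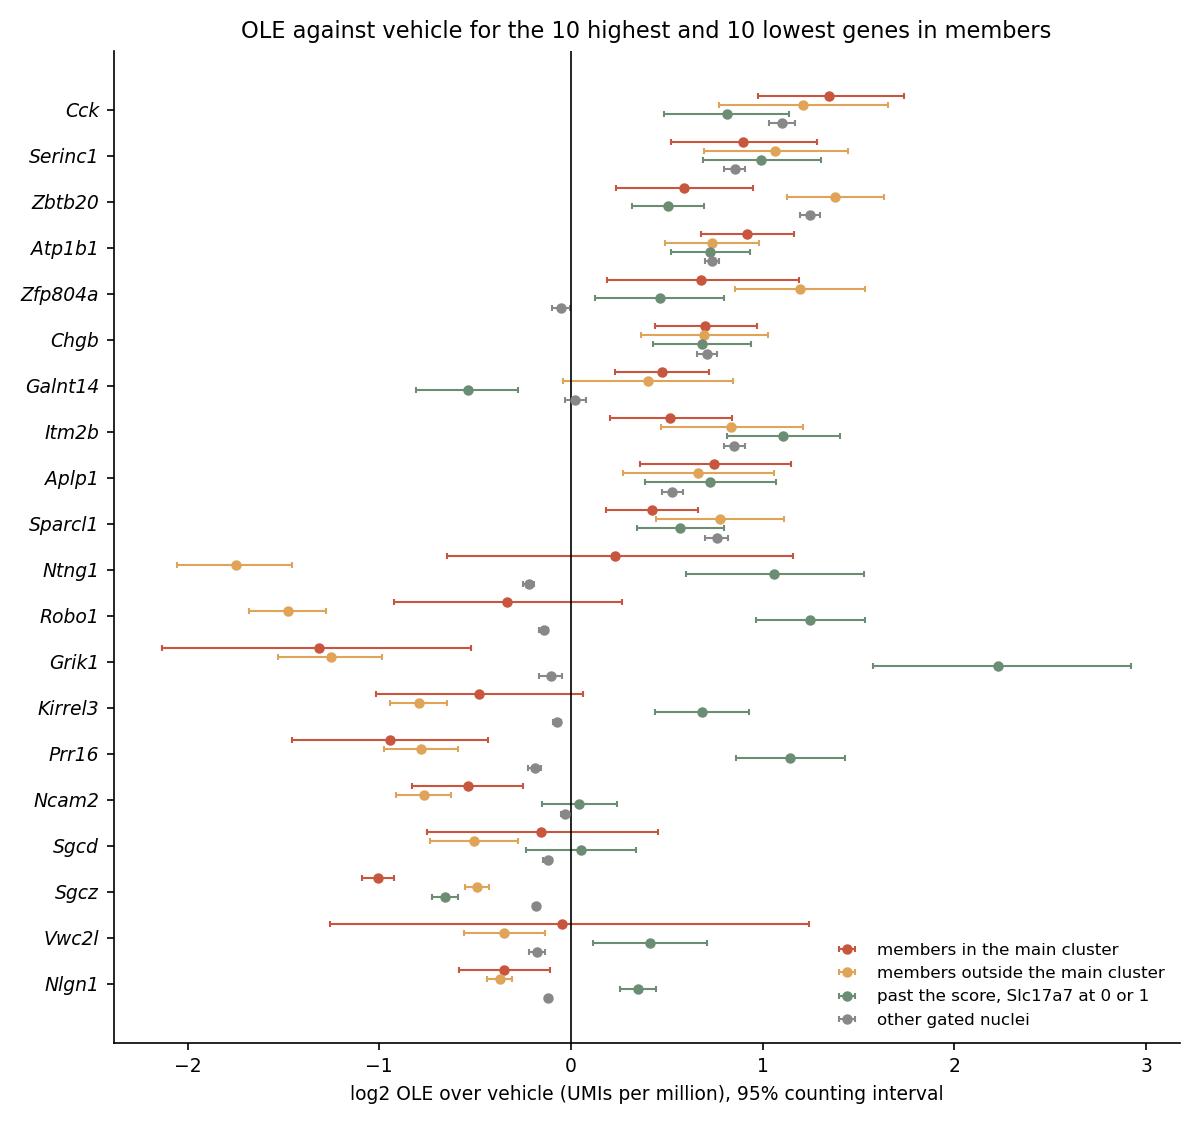
log2 ratio of OLE over vehicle with 95% counting intervals for the 10 highest and 10 lowest genes of the members, in members of the main cluster (red), members outside it (orange), nuclei past the score with Slc17a7 at 0 or 1 (green) and other gated nuclei (grey). The upper genes lie right of 0 in most sets, while of the lower genes only Sgcz lies left of 0 in all 4 sets with its interval.

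Several genes of protein folding had higher sums in the OLE members, and the list stood alike in the other gated nuclei. Of 11 measured genes of the unfolded protein binding list, 6 were at least 1.5-fold higher in OLE and none was 1.5-fold lower. Over all 3049 genes measured in members, 1.87% were higher and 1.71% lower by that fold. The median log2 ratio of the list was 0.69 in members, beside 0.01 over all genes. The median of the list was 0.48 in the main cluster and 0.49 in the other gated nuclei. Hspa8, a constitutive chaperone gene, was at 50.6 and 114 CPM in members (1.18, interval 0.81 to 1.56), Calr at 49.4 and 95.6 (0.95), Hsp90b1 at 68.9 and 128 (0.89), Canx at 68.9 and 120 (0.80), Hspa5 at 42.7 and 69.4 (0.70) and Hsp90ab1 at 56.7 and 91.7 (0.69). Calr, Canx, Hspa5 and Hsp90b1 encode chaperones of the endoplasmic reticulum. Of 12 measured genes of the amyloid precursor and amyloid binding list, 4 were past 1.5-fold upward and none downward, with a median of 0.19 in members and 0.33 in the other gated nuclei. Cst3, which encodes cystatin C, was at 53.7 and 102 in members (0.92), Itm2c at 57.3 and 93.6 (0.71), and Aplp1 and Itm2b made up the 4.

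No serotonin receptor or rule gene was past 1.5-fold between groups. Htr4 had a log2 ratio of OLE over vehicle of 0.42 in members (0.21 to 0.64), 0.18 in the main cluster and 0.20 in the other gated nuclei, and Htr7 of -0.11 (-0.46 to 0.24). Htr2c had -0.11 (-0.21 to -0.01), Dpp4 -0.05 (-0.32 to 0.23), Pappa 0.21 (-0.18 to 0.60), Nell1 0.19 and Rnf152 0.45, and since these 5 chose the members their ratios are a description. For Nell1 the main cluster had -0.01. None of the 3 serotonin receptor genes with at least 200 UMIs (Htr2c, Htr4 and Htr7), none of the 8 measured genes below Gq and none of the 6 of the dipeptidyl peptidase family was past 1.5-fold in either direction, where 1.87% and 1.71% of all genes were. With so few genes these counts set the lists apart from the rest in no way. In the list of Nell, Robo and Slit genes 3 of 10 measured were at least 1.5-fold lower in OLE members, namely Robo1, Robo2 (-0.61) and Dcc (-0.60). Of 19 glutamate receptor genes measured, 1 was past the fold, Grik1, and of 19 potassium channel genes 1, Kcna1, at 56.7 and 88.8 CPM (0.65), both near the share over all genes.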

How the data were processed

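Nuclei of the entorhinal cortex were sequenced with a droplet 3′ protocol, 1 library of pooled mice per group. The authors deposited raw counts, as matrices of UMI counts per gene and nucleus made with Cell Ranger 3.0.1 on an mm10 pre-mRNA reference, so intronic reads were counted. The submitters' notes also name Seurat 4.0.4. All deposited barcodes were used. The study states that doublets were removed, but whether before deposit is not given in the sources used here, and no doublets were removed here apart from 1 alternative.

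UMIs were summed over the nuclei of a set and library and given as counts per 1000000 UMIs of that set (CPM). Genes needed at least 200 UMIs. With 1 library per group no test was made, and calls are folds of 1.5 (OLE against vehicle) or 2 (members against other nuclei, in both libraries). Shares have exact Clopper-Pearson intervals, sums exact Poisson intervals and ratios exact binomial counting intervals, all at 95%. They cover counting error only. Depth was 70845739 UMIs in vehicle and 69485537 in OLE. GABAergic nuclei had at least 6000 UMIs, over 3 UMIs of Gad1 and Gad2 and at most 1 of Slc17a7, and oligodendrocyte nuclei at least 1000 UMIs, at least 5 UMIs of oligodendrocyte marker genes, among them Mog and Mag, and 0 of Slc17a7. Nuclei were clustered on 2000 variable genes, 30 principal components and 20 neighbours (Leiden, resolution 1, scanpy 1.11.5). Sums and intervals were computed in Python 3.11.15 (scipy 1.17.1 for the intervals, numpy 2.4.6 for the sums) and tested on simulated data.

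Named genes were the 5 rule genes, the 20 highest and 8 lowest by the smaller of the libraries' log2 folds, the 10 highest and 10 lowest OLE over vehicle ratios among genes with at least 500 UMIs, 5 genes that followed the score, and genes of the lists. Members and lists were chosen with earlier results of these data known. Of the list genes, 3 were not matched, and results that need certain genes are not reported here. Gene positions are from GENCODE vM21 (GRCm38), and promoters, found for 4 of the 5 rule genes, from RefSeq (GRCm38.p6). The gate was varied, with and without a Slc17a7 minimum, along with threshold, rule genes, scaling and folds.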

Additional observations from a re-analysis of the deposited data

Results flagged for a closer look

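For 21 genes of the members' named genes and lists, the ratio of OLE over vehicle had the opposite direction in the members and in the other gated nuclei, with counting intervals that excluded 0 in both. Each group was 1 library, so the difference between members and other nuclei was not tested. Values are log2 ratios, members first.
Among channel, receptor and transporter genes the values were Grik2 0.15 and -0.0727, Kcnip4 0.35 and -0.0824, Kcnma1 0.0982 and -0.0777, Kcnn2 0.49 and -0.0437 and Slc1a2 -0.20 and 0.21. Among genes of the rule and of transcription or guidance they were Htr2c -0.11 and 0.26, Nell1 0.19 and -0.0812, Zfp804a 0.80 and -0.0517, Zfpm2 0.14 and -0.14, Thsd7b 0.34 and -0.12, Unc5d -0.19 and 0.0207 and Maml2 -0.34 and 0.77. Among genes of amino acid sensing, amyloid precursor binding and noncoding RNA they were Fnip2 0.54 and -0.12, Slc38a9 0.29 and -0.084, Apba1 0.16 and -0.0618 and Meg3 0.0719 and -0.0362. The mitochondrially encoded genes were lower in OLE members and higher in the other OLE nuclei, with mt-Atp6 -0.12 and 0.14, mt-Co1 -0.31 and 0.0565, mt-Co2 -0.18 and 0.0444, mt-Co3 -0.16 and 0.0817 and mt-Cytb -0.31 and 0.0405. In the main cluster the median of the mitochondrially encoded list was 0.29, so its direction there was that of the other gated nuclei. The main-cluster CPM of Zfpm2 and of Thsd7b, given above, was likewise lower in OLE than in vehicle, and Nell1 had -0.01 there. Htr2c (-0.12) and Zfp804a (0.68) kept the members' direction in the main cluster. The ratios of Htr2c and Nell1 come from genes that chose the members.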

How the results depend on the processing

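Each group was 1 library, so leaving out a library left no comparison. No paired analysis was possible because each group had 1 library and the results come from no test. The larger OLE share of members kept its direction under all settings tried except without a Slc17a7 minimum, where vehicle was 6.66% and OLE 6.52%. With at least 2 UMIs of Slc17a7 and Slc17a6 together, vehicle was 6.50% and OLE 6.77%. These settings, the main cluster alone and the limit of 0.2% on glial and vascular markers were chosen after seeing the data. Vehicle and OLE shares were 6.55% and 8.32% at a threshold of 0.8, 3.62% and 5.14% at 1.2, 6.26% and 7.70% without Pappa, 6.32% and 7.85% without Nell1, 1.22% and 2.14% of all barcodes, and 2.70% and 4.52% for the main cluster alone.

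Genes higher in OLE members numbered 106 at a threshold of 0.8, 87 without Rnf152, 90 without Pappa, 90 without Dpp4, 101 without Nell1, 14 after thinning to 6000 UMIs, 223 and 11 at minima of 100 and 500 UMIs, 9 at a fold of 2, 22 in the main cluster, 109 without the Slc17a7 minimum and 86 with both transporters. Genes lower in OLE members numbered 22 at a threshold of 1.2, 30 without Nell1, 20 after thinning, 92 and 24 at minima of 100 and 500 UMIs, 15 at a fold of 2, 12 in the main cluster, 21 without the Slc17a7 minimum and 24 with both transporters. Genes lower in members than in other gated nuclei numbered 294 at 0.8, 675 at 1.2, 268 without Dpp4, 173 at a fold of 3, 821 in the main cluster and 745 without the Slc17a7 minimum, and genes higher numbered 41 at a fold of 3 and 268 in the main cluster.

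The log2 ratio of OLE over vehicle reversed for Ntng1 in the main cluster (0.23), without the Slc17a7 minimum (0.59) and with both transporters (0.17), for Kirrel3 in the last 2 of these (0.57 and 0.64), for Robo1 without the minimum (0.11), for Vwc2l without Htr2c (0.40) and for Sgcd without Dpp4 (0.23). The median of the mitochondrially encoded list, -0.16, reversed at 1.2 (0.15), without the top 5% of doublet scores (0.0841), without Rnf152 (0.0145), Dpp4 (0.12) or Nell1 (0.0532), after thinning (0.0808), with equal weight per nucleus (0.0369), in the main cluster (0.29) and without the Slc17a7 minimum (0.70). The amyloid list's median moved to 0.55 after thinning. The cause of these changes was not tested, apart from the minima and folds, which set how many genes can be called.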

Other observations

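Nuclei outside the gate also reached the score. Among GABAergic nuclei, 4 of 278 in vehicle and 5 of 326 in OLE had a mean z of at least 1.0. Among nuclei with at least 2 UMIs of Slc17a7 and over 3 of Gad1 and Gad2 the numbers were 0 of 58 and 5 of 69, and among nuclei of at least 2000 but under 6000 UMIs that passed the other gates 12 of 426 and 19 of 483. Oligodendrocyte nuclei of at least 2000 UMIs, which lack Slc17a7, reached it in 12 of 618 and 9 of 597.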
